A study of Homo sapiens with 44 samples.

Results

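The unfolded protein response and the integrated stress response were described here through 39 genes chosen by name for their roles: sensors of the endoplasmic reticulum (ER), stress transcription factors, ER chaperones, ER-associated degradation factors, and targets of ATF4 and CHOP. A transcript cluster, the probe group that the array holds for a gene, was found by symbol for 38 of the 39 genes among 21448 clusters, with 1 cluster per gene. HSP90B1 had no cluster with that symbol and was not analysed here. The arrays were Clariom S human arrays, and every level below is a log2 intensity after RMA normalization. The question of the study was what changes in neuroblastoma cells when JMJD6, a nuclear jumonji-domain enzyme, is knocked down.

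The cells were CHP134, a MYCN-amplified neuroblastoma line, and SK-N-AS, a neuroblastoma line without MYCN amplification. Each had been infected with a lentivirus carrying a doxycycline (DOX) switch for GFP and a short hairpin RNA, and cells bright for GFP had been sorted, so each line was a sorted pool. The hairpin was either a scrambled control (SCR, control shRNA) or directed against JMJD6, with a pair of JMJD6 hairpins (shRNA-1, shRNA-2) used in CHP134 and shRNA-2 alone in SK-N-AS. Cells received 2 µg/ml DOX or vehicle for 40 h, and DOX-treated JMJD6 shRNA cells are called induced below. In CHP134 there were 6 control shRNA arrays with each treatment (repeats A to F), 4 JMJD6 shRNA-1 arrays with each treatment (A, B, E and F) and 4 JMJD6 shRNA-2 arrays with each treatment (A, B, C and D). In SK-N-AS each of the 4 groups had 3 arrays, named B, C and with no letter. A response was computed as the change with DOX in JMJD6 shRNA cells less the change with DOX in control shRNA cells, tested with limma and adjusted by the Benjamini-Hochberg method over all 21448 clusters. A call is an adjusted p under 0.05.

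Proteins that misfold in the ER are detected by PERK (gene EIF2AK3), IRE1α (gene ERN1) and ATF6, which lie in the ER membrane. PERK phosphorylates eIF2α, which lowers general translation and raises translation of ATF4, the transcription factor through which amino acid shortage and other stresses also act. IRE1α splices the XBP1 mRNA, and ATF6 is cut in the Golgi, and both yield transcription factors that raise ER chaperones and degradation factors. Much of this signalling is by splicing, cleavage and translation, which the gene-level arrays used here do not measure.

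The control DNA of these genes is shown first, because the letters that XBP1, ATF6 and ATF4 are known to bind differ between the members described below. The stretches come from RefSeq promoter windows on GRCh38.p14 (250 bases before to 50 bases after the annotated start), which held 35 of the 39 genes. The letters searched on both strands were the ER stress response element ERSE (CCAAT, any 9 bases, CCACG), ERSE-II (ATTGG, any 1 base, CCACG), the core of the unfolded protein response element UPRE (TGACGTGG) and the ATF4 composite element CARE (TGATG, any base, AA). Capitals mark matches, on either strand. HYOU1 is shown from its first to its last match with flanking bases on both sides, chr11:119057264-119057403 on the minus strand. There TGACGTGG overlaps the first of 2 ERSE-II matches, and the second lies further downstream. For comparison, HSPA5 (chr9:125241381-125241419, minus) and XBP1 (chr22:28800593-28800631, minus) carry ERSE. SDF2L1 (chr22:21642104-21642134, plus) carries ERSE-II. HERPUD1 (chr16:56931956-56932045, plus) carries both CARE and ERSE-II. CHAC1 (chr15:40953252-40953279, plus) and ASNS (chr7:97872459-97872486, minus) carry CARE.
HYOU1: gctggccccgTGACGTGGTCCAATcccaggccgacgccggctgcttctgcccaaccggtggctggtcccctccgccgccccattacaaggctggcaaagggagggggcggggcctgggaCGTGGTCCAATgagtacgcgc
HSPA5: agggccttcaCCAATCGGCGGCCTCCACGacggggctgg
XBP1: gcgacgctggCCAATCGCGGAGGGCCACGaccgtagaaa
SDF2L1: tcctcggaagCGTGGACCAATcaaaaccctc
HERPUD1: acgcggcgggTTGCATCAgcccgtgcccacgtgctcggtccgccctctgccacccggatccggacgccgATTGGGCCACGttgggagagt
CHAC1: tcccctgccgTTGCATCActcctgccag
ASNS: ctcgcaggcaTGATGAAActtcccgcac

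A gene was counted once if any of its windows held a match. ERSE letters were in 7 of the 35 genes (20%), against 25 of all 27305 genes with a window (0.0916%). The 7 were XBP1, HSPA5, HSP90B1, CALR, CANX, CRELD2 and PDIA6. ERSE-II letters were in 3 of 35 (8.57%, against 0.0696% of all), which were HYOU1, SDF2L1 and HERPUD1. UPRE letters were in HYOU1 and DNAJC10 (5.71%, against 0.927% of all). CARE letters were in 6 of 35 (17.1%, against 4.46% of all), which were ATF3, CEBPG, HERPUD1, ASNS, CHAC1 and SLC3A2. The EDEM1 window held none of the 4 motifs. The genes were chosen for their known regulation, so these shares describe the list, and a match of letters is not a measured binding site.

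JMJD6 itself was lower in induced cells of both lines. Its level in CHP134 was 7.82 ± 0.17 (SD, n = 6) in DOX-treated control cells, 7.01 ± 0.17 (n = 4) with shRNA-1 and 6.69 ± 0.19 (n = 4) with shRNA-2. In SK-N-AS it was 7.33 ± 0.16 in DOX-treated control cells and 6.64 ± 0.20 in induced cells (n = 3 each). The response of JMJD6 was -0.85 for the mean of both hairpins in CHP134 (adjusted p = 0.00153) and -1.01 with shRNA-2 (adjusted p = 0.0193). It missed the threshold with shRNA-1 (-0.65, adjusted p = 0.590) and in SK-N-AS (-0.64, adjusted p = 0.536). Background was set at the 95th percentile over negative control sets, and clusters above it made up 72.3% to 80.5% of a CHP134 array and 75.8% to 81.9% of an SK-N-AS array. Of 10 measured adrenergic neuroblastoma markers 9 were above background on every CHP134 array (all but DBH) and 10 on every SK-N-AS array. Of 8 mesenchymal markers 6 (all but NOTCH2 and YAP1) and 8 were. Their levels differed more than these counts. The summed linear intensity of the adrenergic markers was 7624 to 12210 in CHP134 and 1481 to 2215 in SK-N-AS. For the mesenchymal markers it was 1164 to 1635 in CHP134 and 5291 to 6926 in SK-N-AS. The lines were normalized separately. Of 10 markers of other cell types 6 or 7 in CHP134 and 8 in SK-N-AS were above background on every array of a group. Passing this background does not by itself show that a gene is expressed. VWF and KRT5, from this list, passed it on every array of both lines. Of those 10, PTPRC, the leukocyte phosphatase CD45, was below background on every CHP134 array and lay at 8.97 to 10.27 in SK-N-AS. CD68 lay at 5.24 to 5.97 in CHP134 and at 8.39 to 9.19 in SK-N-AS.

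In SK-N-AS, 2 control shRNA arrays stood apart from the other 4, the vehicle array with no letter and DOX repeat B. Their mean absolute log2 difference was 0.182 from each other, 0.269 to 0.296 from the other 4 control arrays and 0.207 to 0.261 from the JMJD6 shRNA-2 arrays. SK-N-AS results are given with all arrays, and the main ones also without these 2.

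In CHP134, HYOU1 was the member called lower with JMJD6 knockdown in the main fits, which had no block for the repeat letter. EDEM1, described below, fell by a similar amount. HYOU1 encodes GRP170, an ER chaperone that also exchanges nucleotide on BiP, the HSPA5 product. Its levels were 10.52, 10.71 and 10.77 (lowest, median and highest of 6) in vehicle-treated control cells and 10.57, 10.61 and 10.85 in DOX-treated control cells. With shRNA-1 they were 10.82, 10.55, 10.50 and 10.53 in vehicle repeats A, B, E and F, and 10.18, 9.84, 9.97 and 9.93 with DOX. With shRNA-2 they were 10.83, 10.77, 10.78 and 10.86 in vehicle repeats A to D, and 9.56, 9.94, 10.05 and 10.09 with DOX. All 8 induced arrays (9.56 to 10.18) therefore lay below all 20 other arrays (10.50 to 10.86). HYOU1 was the 1 member of 38 with that separation, which 0.48% of all clusters showed, and 0 members lay above all other arrays, as 0.345% of clusters did.

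HYOU1 fell by 0.74 for the mean of both hairpins (SE 0.13, 1.67-fold lower, 95% confidence interval -0.999 to -0.47, adjusted p = 0.0021), and was lower in 8 of 8 repeats. It was the 1 member of 38 called, where 1.25% of all clusters were called and 0.844% were called lower. With shRNA-2 alone it fell by 0.91 (SE 0.18, 1.88-fold lower, adjusted p = 0.0216, lower in 4 of 4 repeats), again as the 1 member called, against 0.779% of clusters called and 0.532% called lower. With shRNA-1 alone the response was -0.55 (SE 0.16, adjusted p = 0.574, lower in 4 of 4 repeats), and 0 of 38 members were called, as were 0% of clusters. The difference of shRNA-2 minus shRNA-1 was fitted on all 28 arrays, where the control change cancels, while each hairpin alone was set against control arrays of its own letters, so the difference need not equal that of the separate responses. For HYOU1 it was -0.28 (95% confidence interval -0.62 to 0.07, adjusted p = 1.00). No member was called for that difference, where 0.00932% of clusters were. Both responses share the control arrays of repeats A and B.

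Within each repeat set the HYOU1 response had the same sign. It was -0.62 in repeats A and B and -0.47 in E and F with shRNA-1, and -0.99 in A and B and -0.83 in C and D with shRNA-2. The HYOU1 call for both hairpins together held when any array was left out (adjusted p 0.0018 to 0.00592), and it was also made from repeats C to F alone (-0.65). It was not called from repeats A and B alone (-0.80, adjusted p = 0.299). The shRNA-2 call was lost without control DOX repeat C or without shRNA-2 vehicle repeat D, with an adjusted p of up to 0.0568.

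**Figure D1:**
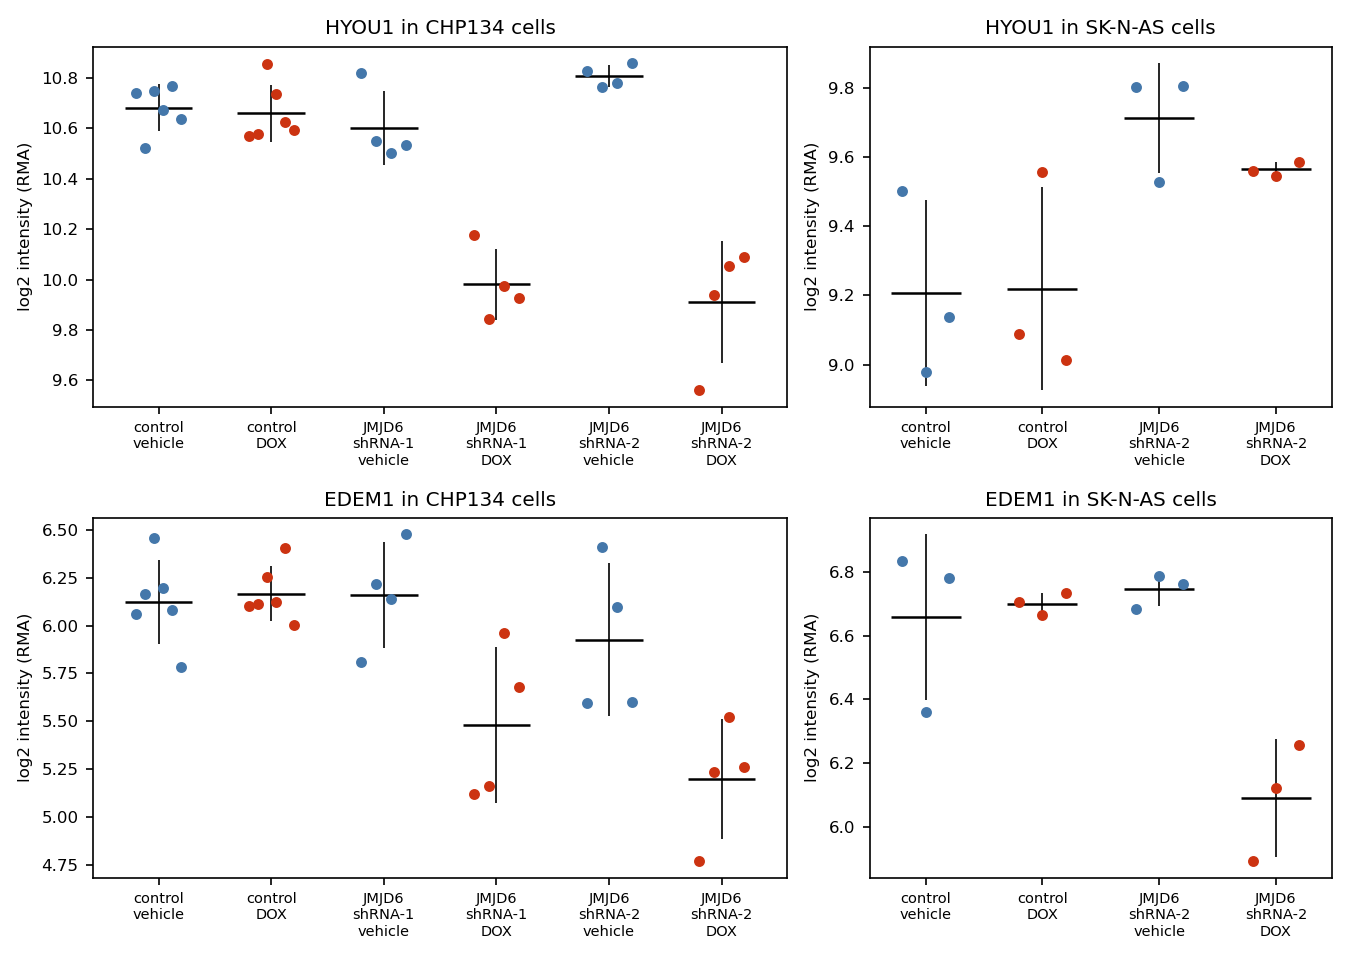
Log2 intensity of HYOU1 (top) and EDEM1 (bottom) on every array of CHP134 (left) and SK-N-AS (right), by hairpin and treatment, with vehicle in blue and DOX in red, a bar at each group mean and a vertical line of 1 SD to each side. The 8 induced CHP134 arrays of HYOU1 (9.56 to 10.18) sit below the other 20, and the 3 induced SK-N-AS arrays of EDEM1 (5.89 to 6.26) sit below the other 9.

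EDEM1 had a response of similar size in both lines without passing the threshold in the main fits. EDEM1 recognises misfolded glycoproteins with trimmed mannose and hands them to ER-associated degradation, and it is a known target of XBP1. In CHP134 its levels were 5.78, 6.12 and 6.46 (lowest, median, highest of 6) in vehicle-treated control cells and 6.0, 6.12 and 6.4 with DOX. With shRNA-1 they were 5.81, 6.21, 6.14 and 6.48 in vehicle repeats A, B, E and F, and 5.12, 5.16, 5.96 and 5.68 with DOX. With shRNA-2 they were 5.60, 6.41, 6.1 and 5.60 in vehicle repeats A to D, and 4.77, 5.24, 5.52 and 5.26 with DOX. The induced arrays reached the lowest values but overlapped the others, mainly through shRNA-1 repeats E and F.

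The mean response of EDEM1 was -0.75 (SE 0.21, 1.68-fold lower, 95% confidence interval -1.18 to -0.31, adjusted p = 0.0813), lower in 8 of 8 repeats. A block for the repeat letter brought EDEM1 past the threshold (adjusted p = 0.0119), making 2 members called, where 6.18% of clusters were called in that fit. It was -0.81 with shRNA-1 (adjusted p = 0.632) and -0.66 with shRNA-2 (adjusted p = 0.319). On all 28 arrays, with the control change cancelled, the shRNA-2 minus shRNA-1 difference of EDEM1 was -0.05 (95% confidence interval -0.62 to 0.52), so its sign was not settled.

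In SK-N-AS, EDEM1 was at 6.83, 6.36 and 6.78 in vehicle-treated control cells (no letter, B, C), 6.70, 6.67 and 6.73 in DOX-treated control cells, 6.69, 6.79 and 6.76 in vehicle-treated shRNA-2 cells and 5.89, 6.12 and 6.26 in induced cells. The induced arrays lay below all 9 others. EDEM1 was the 1 member to do so, where 2.76% of all clusters did. Its response was -0.70 (SE 0.19, 95% confidence interval -1.11 to -0.28, adjusted p = 0.441, lower in 3 of 3 arrays), and -0.80 without the 2 control arrays that stood apart (adjusted p = 0.328). The SK-N-AS levels of HYOU1 were 9.50, 8.98 and 9.14 in vehicle-treated control cells, 9.09, 9.56 and 9.01 with DOX, 9.80, 9.53 and 9.80 in vehicle-treated shRNA-2 cells and 9.56, 9.55 and 9.59 in induced cells. Its response there was -0.16 (95% confidence interval -0.66 to 0.34, adjusted p = 0.987), and -0.14 without the 2 arrays. Whether the HYOU1 response differed between the lines was not tested.

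The sensors showed no called response in CHP134. EIF2AK3, which encodes PERK, ranged over 6.55, 7.17 and 7.38 (lowest, median, highest) in vehicle-treated and 6.46, 7.13 and 7.46 in DOX-treated control cells. It was at 7.49, 7.11, 6.21 and 6.73 in shRNA-1 vehicle repeats A, B, E and F, and at 6.77, 6.32, 6.55 and 6.59 with DOX. With shRNA-2 it was at 7.54, 7.52, 7.08 and 7.03 in vehicle repeats A to D and at 7.61, 7.29, 7.20 and 7.01 with DOX. The groups overlapped, and the mean response of EIF2AK3 was -0.14 (95% confidence interval -0.66 to 0.39, lower in 4 of 8 repeats).

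ERN1, which encodes IRE1α, ranged over 7.06, 7.22 and 7.53 in vehicle-treated and 7.18, 7.38 and 7.51 in DOX-treated control cells. It was at 7.33, 7.13, 7.0 and 7.24 in shRNA-1 vehicle repeats and 6.93, 7.22, 7.51 and 6.78 with DOX. With shRNA-2 it was at 7.49, 7.34, 7.40 and 7.24 with vehicle and 7.98, 7.75, 7.64 and 7.32 with DOX. The shRNA-2 DOX values of repeats A, B and C exceeded every control array of ERN1. Its response in single repeats was 0.37, 0.22, 0.35 and 0.11 with shRNA-2 (A to D). With shRNA-1 (A, B, E and F) it was -0.52, -0.09, 0.32 and -0.68. The mean response of ERN1 over both hairpins was 0.02 (95% confidence interval -0.31 to 0.36). ATF6 was at 8.04, 8.30 and 8.60 in vehicle-treated and 8.14, 8.38 and 8.59 in DOX-treated control cells, and at 8.68, 8.36, 8.33 and 8.04 in shRNA-1 vehicle repeats against 8.63, 8.52, 8.26 and 8.19 with DOX. With shRNA-2, ATF6 was at 8.66, 8.52, 8.42 and 8.27 with vehicle and 8.61, 8.35, 8.43 and 8.44 with DOX, and its mean response was -0.02 (95% confidence interval -0.34 to 0.29).

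None of the 6 stress transcription factors was called for the mean response, and their median was 0.01, beside 0.00 over all clusters. ATF4, the effector of the integrated stress response, was at 9.09, 9.57 and 9.78 in vehicle-treated control cells and at 9.0, 9.60 and 9.74 with DOX. It was at 8.62, 9.44, 8.55 and 8.74 in shRNA-1 vehicle repeats A, B, E and F, and at 8.43, 9.24, 8.84 and 8.91 with DOX. With shRNA-2 it was at 8.85, 9.38, 9.06 and 9.86 in vehicle repeats A to D and at 8.03, 9.16, 8.56 and 9.15 with DOX. Repeat B was the highest of the shRNA-1 repeats in both treatments, and the mean response of ATF4 was -0.28 (95% confidence interval -0.81 to 0.26, adjusted p = 0.871). With shRNA-2 alone it was -0.58, lower in 4 of 4 repeats (adjusted p = 0.658).

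DDIT3, which encodes the pro-apoptotic factor CHOP, was at 5.53, 5.91 and 6.20 in vehicle-treated control cells and at 5.55, 5.86 and 6.1 with DOX. Its shRNA-1 levels were 5.54, 5.95, 5.53 and 5.27 with vehicle and 5.52, 6.07, 5.75 and 6.02 with DOX. Its shRNA-2 levels were 5.52, 5.31, 5.81 and 6.29 with vehicle and 5.43, 6.02, 5.51 and 5.84 with DOX. The repeats of DDIT3 moved in both directions (higher in 4 of 8), and the mean response was 0.19 (95% confidence interval -0.23 to 0.61). CEBPB, a leucine zipper factor that pairs with ATF4 and CHOP, was at 7.31, 7.55 and 8.02 in vehicle-treated control cells and 7.18, 7.64 and 8.38 with DOX. Its shRNA-1 levels were 7.87, 7.78, 7.73 and 8.22 with vehicle and 8.01, 7.87, 8.0 and 7.93 with DOX, and its shRNA-2 levels were 7.76, 7.68, 7.53 and 7.41 with vehicle and 8.12, 7.87, 7.52 and 7.69 with DOX. The mean response of CEBPB was 0.13 (95% confidence interval -0.30 to 0.55). XBP1 had a mean response of 0.01 (95% confidence interval -0.45 to 0.47), ATF3 of -0.03 and CEBPG, a partner of ATF4, of 0.01.

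Of the 14 ER chaperones and folding enzymes measured, HYOU1 was called lower and 13 were not called. The median of the 14 was 0.01, and 7 lay above 0. HSPA5, the ER HSP70 chaperone BiP and a common readout of the unfolded protein response, had a mean response of 0.08 (95% confidence interval -0.26 to 0.41). DNAJC10, an ER disulfide reductase, was at 8.01, 8.24 and 8.49 in vehicle-treated control cells and 7.77, 8.29 and 8.33 with DOX. With shRNA-1 it was at 8.03, 8.30, 8.44 and 8.10 with vehicle and 7.93, 7.30, 8.17 and 8.01 with DOX, and with shRNA-2 at 8.33, 8.33, 8.49 and 8.34 with vehicle and 7.85, 7.82, 8.0 and 8.30 with DOX. In all 8 repeats of JMJD6 shRNA cells the DOX array of DNAJC10 was below its vehicle array, and its response relative to control cells was -0.31 (95% confidence interval -0.67 to 0.05, adjusted p = 0.601, lower in 5 of 8). PDIA4, a protein disulfide isomerase, was at 9.17, 9.40 and 9.68 in vehicle-treated control cells and 9.21, 9.36 and 9.57 with DOX. Its shRNA-1 levels were 9.34, 9.30, 9.25 and 9.12 with vehicle and 9.66, 9.62, 9.46 and 9.30 with DOX, and its shRNA-2 levels were 9.27, 9.05, 9.54 and 9.48 with vehicle and 9.45, 9.05, 9.64 and 9.52 with DOX. The mean response of PDIA4 was 0.20 (adjusted p = 0.779, higher in 7 of 8 repeats). The calnexin and calreticulin genes CANX and CALR were at 0.14 and -0.02, and the ERSE-II gene SDF2L1, a component of BiP complexes, at 0.05.

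**Figure D2:**
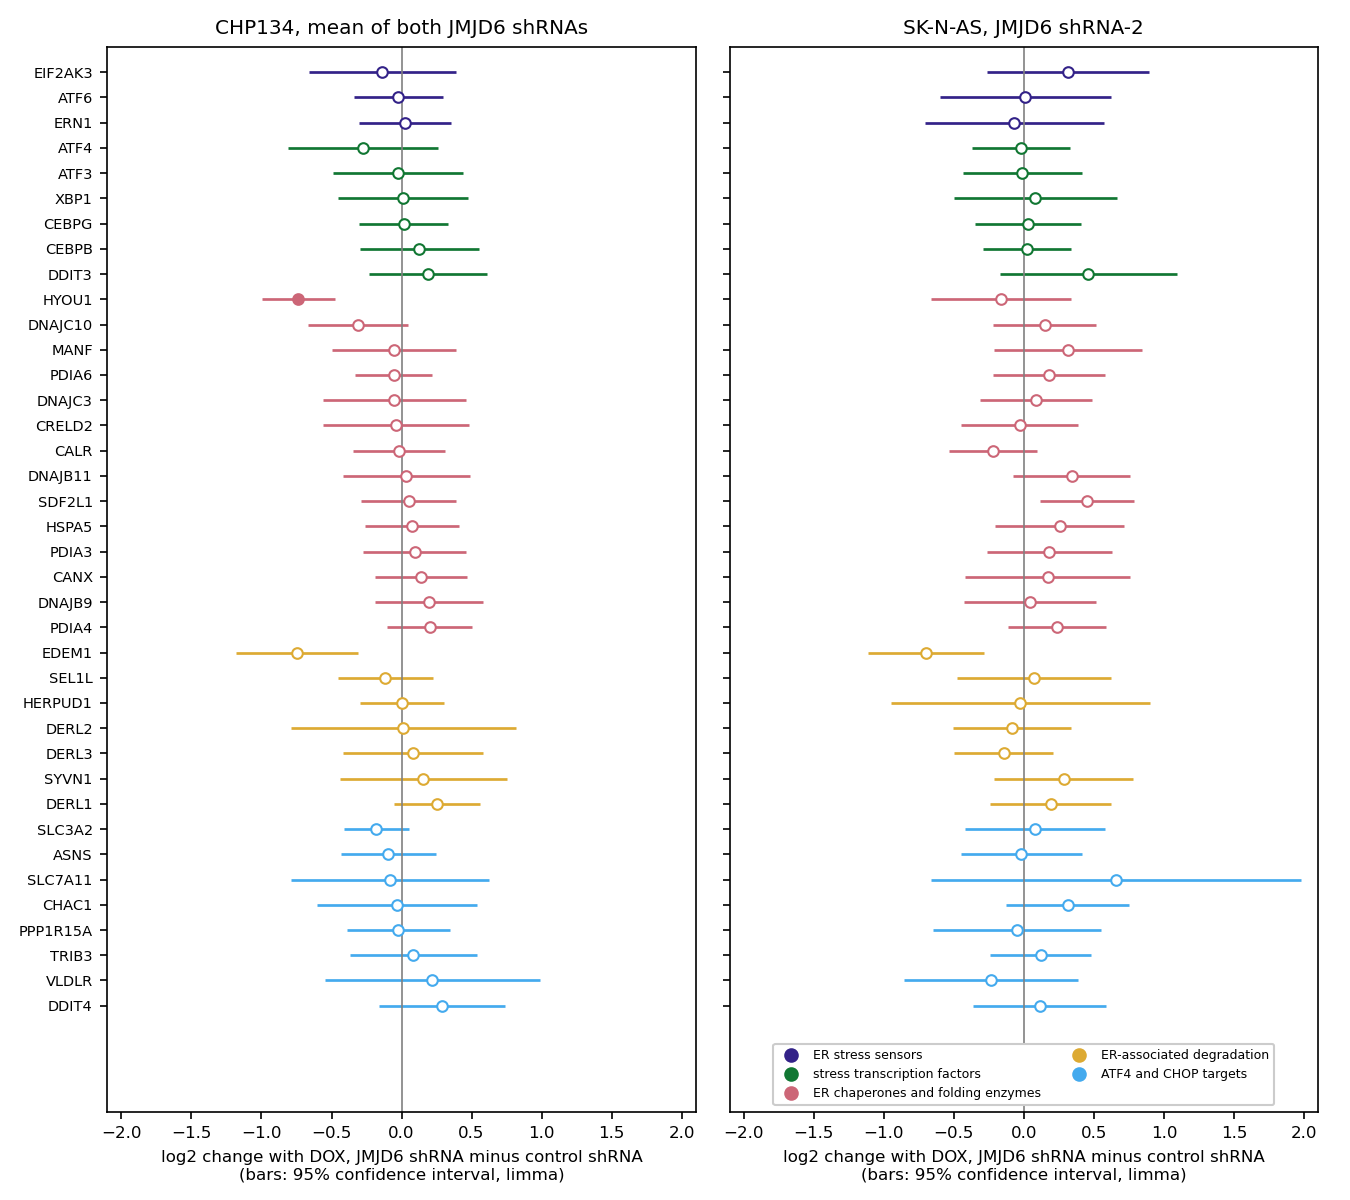
Response to JMJD6 shRNA of each of the 38 measured genes, as the log2 change with DOX in JMJD6 shRNA cells minus that in control shRNA cells, for the mean of both hairpins in CHP134 (left) and for shRNA-2 in SK-N-AS (right). Bars are 95% confidence intervals, colours are roles and a filled point is a call at an adjusted p under 0.05, which HYOU1 in CHP134 had alone. HYOU1 (-0.74) and EDEM1 (-0.75) stand left of the others in CHP134, which range from -0.31 to 0.29.

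None of the 7 measured ER-associated degradation genes was called for the mean response (median 0.01). DERL1, of the derlin family at the retrotranslocation channel, was at 9.37, 9.51 and 9.80 in vehicle-treated control cells and 9.15, 9.57 and 9.76 with DOX. With shRNA-1 it was at 9.48, 9.41, 9.95 and 9.90 with vehicle and 9.75, 9.65, 10.03 and 10.06 with DOX, and with shRNA-2 at 9.47, 9.52, 9.60 and 9.56 with vehicle and 9.95, 9.86, 9.88 and 9.83 with DOX. DERL1 was higher with DOX in every repeat of JMJD6 shRNA cells, and its response relative to control cells was 0.25 (95% confidence interval -0.05 to 0.56, adjusted p = 0.639, higher in 7 of 8). SEL1L, the scaffold of the HRD1 ubiquitin ligase, was at 8.35, 8.49 and 9.13 in vehicle-treated control cells and 8.38, 8.54 and 8.85 with DOX. Its shRNA-1 levels were 8.94, 8.52, 8.46 and 8.65 with vehicle and 8.83, 8.65, 8.66 and 8.49 with DOX, and its shRNA-2 levels were 9.01, 8.73, 9.0 and 8.73 with vehicle and 8.55, 8.42, 8.73 and 8.70 with DOX. The mean response of SEL1L was -0.12 (adjusted p = 0.944). HERPUD1, a ubiquitin-like domain protein of the HRD1 complex, was at 0.00 (95% confidence interval -0.30 to 0.30).

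None of the 8 ATF4 and CHOP targets was called for the mean response (median -0.03, 3 above 0). SLC3A2, the heavy chain of amino acid transporters, was at 10.37, 10.55 and 10.71 in vehicle-treated control cells and 10.52, 10.64 and 10.70 with DOX. With shRNA-1 it was at 10.53, 10.58, 10.78 and 10.79 with vehicle and 10.59, 10.58, 10.69 and 10.71 with DOX, and with shRNA-2 at 10.35, 10.52, 10.71 and 10.62 with vehicle and 10.32, 10.39, 10.44 and 10.26 with DOX. The mean response of SLC3A2 was -0.18 (95% confidence interval -0.41 to 0.05, adjusted p = 0.691, lower in 7 of 8 repeats). DDIT4, the mTORC1 inhibitor REDD1, was at 7.18, 7.85 and 8.35 in vehicle-treated control cells and 7.71, 8.11 and 8.51 with DOX. Its shRNA-1 levels were 7.74, 7.51, 7.50 and 7.83 with vehicle and 8.63, 8.02, 8.57 and 8.92 with DOX, and its shRNA-2 levels were 7.78, 7.80, 7.55 and 7.75 with vehicle and 8.17, 7.87, 7.83 and 7.94 with DOX. The response of DDIT4 was 0.67 with shRNA-1 (adjusted p = 0.758, higher in 4 of 4 repeats) and -0.15 with shRNA-2, each against control arrays of its own letters. The difference between hairpins for DDIT4, fitted on all 28 arrays with the control change cancelled, was -0.66 and was not called (95% confidence interval -1.25 to -0.07, adjusted p = 0.935). VLDLR, a lipoprotein receptor reported among PERK pathway targets, was at 4.17, 5.06 and 5.83 in vehicle-treated control cells and 4.61, 5.19 and 5.80 with DOX. Its shRNA-1 levels were 5.35, 5.33, 4.85 and 4.25 with vehicle and 6.29, 6.03, 5.10 and 4.63 with DOX. Its shRNA-2 levels were 5.51, 6.03, 5.15 and 5.34 with vehicle and 5.90, 6.21, 5.28 and 5.61 with DOX. The mean response of VLDLR was 0.22 (adjusted p = 0.956). In control repeats E and F its mean was 4.59, near the background of 3.95 to 4.24 on those arrays.

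Over the 38 genes, the median response was 0.01 for the mean of both hairpins, 0.03 with shRNA-1 and -0.01 with shRNA-2, against 0.00 over all clusters in each. Without a block for the repeat letter, 2 of 38 members had an unadjusted limma p under 0.05 for the mean response (5.26%), beside 10.3% of all clusters. The responses to shRNA-1 in repeats E and F and to shRNA-2 in repeats C and D share no array, and 17 of 38 members had the same sign in both (44.7%, against 57.3% of all clusters). Between the CHP134 mean response and the SK-N-AS response 23 of 38 did (60.5%, against 56.7%).

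The ATF4 targets CHAC1 and SLC7A11, chosen after their values were seen, differed between repeats of shRNA-1. CHAC1, an enzyme that degrades glutathione, was at 7.17, 7.39, 7.16 and 7.33 in vehicle repeats A, B, E and F, and at 6.50, 7.08, 8.46 and 8.36 with DOX. The control cells were at 6.94, 7.41 and 7.71 with vehicle and 7.43, 7.49 and 7.65 with DOX (lowest, median, highest), and the shRNA-2 DOX repeats at 7.20, 7.32, 7.24 and 7.24. Repeats E and F of induced shRNA-1 cells were thus above every control array of CHAC1, while repeat A was below every one. SLC7A11, the cystine transporter subunit xCT, was at 5.72, 5.64, 6.36 and 6.02 in shRNA-1 vehicle repeats and 5.73, 5.11, 7.32 and 7.23 with DOX, beside 5.09, 5.97 and 6.26 in vehicle-treated and 5.65, 5.94 and 6.30 in DOX-treated control cells. TRIB3, a pseudokinase induced by CHOP, was at 5.50, 5.75, 6.26 and 6.65 in induced shRNA-1 repeats A, B, E and F.

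The response in repeats E and F minus that in A and B was 1.65 for CHAC1 (SE 0.42, adjusted p = 0.716), 1.67 for SLC7A11 (SE 0.50, adjusted p = 0.840) and 0.95 for EIF2AK3 (SE 0.40, adjusted p = 0.845). This test was added after the values were seen, and called 0 of 38 members and 0% of clusters. At an unadjusted limma p under 0.05 it had 3 members, beside 5.69% of all clusters. The same test of shRNA-2 (repeats C and D minus A and B) called 0 members and 0% of clusters. Averaged over the 8 targets, induced shRNA-1 arrays stood at 0.06 and -0.05 in repeats A and B and at 0.48 and 0.53 in E and F, relative to vehicle-treated control cells. This average includes CHAC1 and SLC7A11, which were picked for their values. Of the 8 targets 5 had a difference between repeat sets above 0. It was -0.76 for VLDLR, -0.17 for PPP1R15A and -0.14 for SLC3A2. VLDLR was near background in control repeats E and F.

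**Figure D3:**
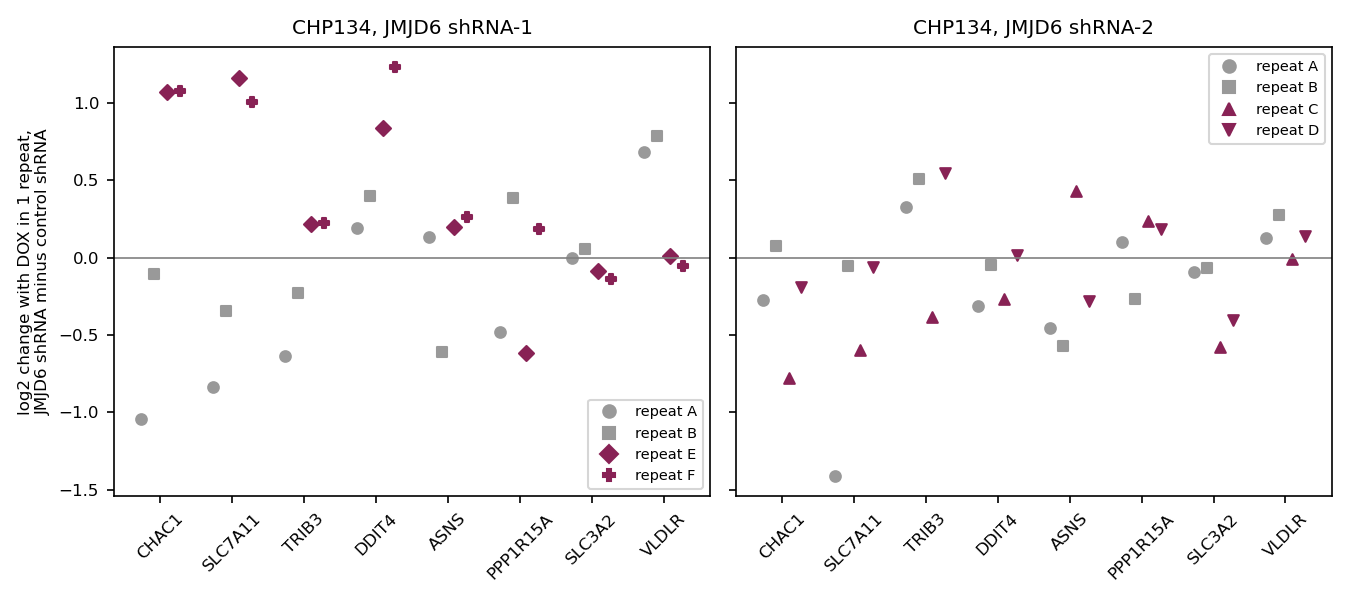
Response of each of the 8 ATF4 and CHOP targets in single CHP134 repeats, as the log2 change with DOX in JMJD6 shRNA cells minus that in control cells of the same letter, for shRNA-1 (left) and shRNA-2 (right). Grey points are repeats A and B, which use the same control arrays in both panels, and purple points are the later letters. CHAC1 and SLC7A11 with shRNA-1 lie below 0 in A and B and between 1.01 and 1.16 in E and F.

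Levels of several members also differed by repeat letter, in both treatments. In control shRNA cells the widest gap between the means of repeats A and B, C and D, and E and F had a median of 0.41 over members and 0.31 over all clusters, and exceeded 0.5 in 11 of 38 members (28.9%, against 19.4% of clusters). DERL2 was at 5.96 to 6.92 in all arrays of repeats A and B and at 7.08 to 7.70 in all arrays of C to F, without overlap. SYVN1, the ubiquitin ligase HRD1, was at 8.61 and 8.87 in shRNA-1 vehicle repeats A and B and at 7.37 and 7.59 in E and F, and DOX-treated control cells had 8.62, 8.75, 8.13 and 8.22 in the same letters. DNAJC3, which inhibits PERK and acts as a BiP cochaperone, was at 7.97 to 8.43 in control repeats C and D and at 7.17 to 7.64 in the other control repeats. DERL2, SYVN1 and DNAJC3 were chosen after their values were seen, and what the letters stand for is not given in the sources used here.

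DOX alone called none of the members in control shRNA cells. In CHP134 the 38 changes with DOX ranged from -0.11 to 0.27, with 0 called and 0% of clusters called, and 0 members had an unadjusted limma p under 0.05 (0.979% of clusters did). The SK-N-AS changes lay between -0.27 and 0.22, with 0 called and 0% of clusters called (unadjusted p under 0.05 in 0 members and 3.19% of clusters). The same held without the 2 control arrays that stood apart, with 0 members and 0% of clusters called.

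Between vehicle-treated JMJD6 shRNA and control cells of CHP134, ATF4 had the smallest p of the members with shRNA-1. Its difference was -0.68 (95% confidence interval -1.13 to -0.23, adjusted p = 0.260), and 0 members and 0% of clusters were called. A block for the repeat letter made it the 1 member called (-0.67, adjusted p = 0.0464), where 0.788% of clusters were called. With shRNA-2 it was -0.24, and 0 members and 0% of clusters were called in that comparison.

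In SK-N-AS 0 of 38 members and 0% of clusters were called for the response to JMJD6 shRNA-2, with or without the 2 control arrays. The smallest adjusted p over all clusters was 0.101 with all 12 arrays. Of 8 mesenchymal neuroblastoma markers, 2 had an unadjusted limma p under 0.05 in this response and 0 were called. YAP1 was at -0.85 (adjusted p = 0.308) and WWTR1, its paralogue TAZ, at -0.54 (adjusted p = 0.532), beside a list median of 0.00. The summed linear intensity of the 8 ranged from 5332 to 6926 in vehicle-treated and 5291 to 6768 in DOX-treated control cells, 5529 to 6582 in vehicle-treated shRNA-2 cells and 5825 to 6587 in induced cells, and their part in the member values was not tested. Members lay above 0 in 25 of 38 cases, with a median of 0.08 beside 0.02 over all clusters. Without the 2 arrays 26 of 38 did, with a median of 0.06 beside 0.01. Of the 14 chaperones 11 lay above 0, with a median of 0.17. Without the 2 arrays 10 of the 14 did, with a median of 0.14. In that fit 1 chaperone was higher (SDF2L1) and 1 lower (CALR) at an unadjusted limma p under 0.05. CALR was at -0.30 there (adjusted p = 0.607). Besides EDEM1, the members with the smallest p over all 12 arrays were SDF2L1, DNAJB11 and DDIT3. SDF2L1 was at 6.79, 7.09 and 7.05 (no letter, B, C) in vehicle-treated control cells, 6.91, 6.93 and 7.0 with DOX, 6.95, 6.79 and 6.91 in vehicle-treated shRNA-2 cells and 7.28, 7.24 and 7.40 in induced cells. The induced SDF2L1 arrays lay above all others, and its response was 0.45 (SE 0.15, 95% confidence interval 0.12 to 0.79, adjusted p = 0.682), or 0.54 without the 2 arrays (adjusted p = 0.351).

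DNAJB11, an ER cochaperone of BiP, was at 9.11, 8.81 and 8.88 in vehicle-treated control cells, 8.82, 9.07 and 8.78 with DOX, 9.12, 9.11 and 9.25 in vehicle-treated shRNA-2 cells and 9.62, 9.20 and 9.55 in induced cells. Its response was 0.34 (adjusted p = 0.901), and 0.34 without the 2 control arrays that stood apart (adjusted p = 0.690). DDIT3 was at 5.12, 5.63 and 5.73, then 5.70, 5.38 and 5.73, then 5.72, 5.03 and 5.63, and in induced cells 6.20, 5.76 and 6.11. The response of DDIT3 was 0.46 (adjusted p = 0.927), and 0.53 without the 2 arrays (adjusted p = 0.676). The induced arrays of 7 members lay above all 9 other SK-N-AS arrays, where 3.3% of all clusters did so. These were EIF2AK3, DDIT3, CANX, SDF2L1, PDIA3, PDIA6 and DERL1. For EIF2AK3, CANX, PDIA3, PDIA6 and DERL1 each vehicle-treated shRNA-2 array also lay above at least 4 of the 6 control arrays, so the separation includes a difference present with vehicle. VLDLR was above background on 0 of 12 SK-N-AS arrays.

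Between vehicle-treated JMJD6 shRNA-2 and control cells of SK-N-AS no member passed the threshold with all arrays, and calls appeared only when the 2 control arrays that stood apart were left out. With all arrays 0 of 38 members were called (0.00466% of clusters were), while 13 members had an unadjusted limma p under 0.05 (10 higher and 3 lower, 34.2% against 7.62% of clusters). The median over members was 0.21 and that over all clusters 0.00. Of the 14 chaperones 13 lay above 0, with a median of 0.33. Members with the smallest p were DNAJC10 (0.43), SEL1L (0.57), PDIA4 (0.36) and HYOU1 (0.51), each with an adjusted p of 0.597.

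Without the 2 arrays 9 members were called, all higher in shRNA-2 cells, where 4.96% of clusters were called. The 2 arrays were picked by their values and lie nearer to the shRNA-2 arrays, so leaving them out widens this difference, and only 2 control vehicle arrays remain. CANX was 0.74 higher (adjusted p = 0.00333), ATF6 0.70 (adjusted p = 0.00429), HYOU1 0.65 (adjusted p = 0.0127) and EIF2AK3 0.56 (adjusted p = 0.0134). DNAJC10 (0.56), SEL1L (0.76), ERN1 (0.66), PDIA6 (0.42) and DNAJC3 (0.52) completed the 9. The 3 sensors were all among them, with 5 of the 14 chaperones. Neighbouring lists had calls in the same fit too. Called higher were 9 of 23 genes of ER import, 9 of 22 further ER folding enzymes, 3 of 22 further degradation genes and 3 of 36 further ATF4 targets. Called lower were 1 of 13 further sensors and regulators, 1 of 12 cytosolic heat shock proteins and 1 of 12 mitochondrial chaperones and proteases.

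The arrays show how the 2 controls sat. ATF6 was at 9.36, 8.63 and 8.61 in vehicle-treated control cells (no letter, B, C), 8.73, 9.30 and 8.64 in DOX-treated control cells, 9.30, 9.35 and 9.32 in vehicle-treated shRNA-2 cells and 9.29, 9.43 and 9.35 in induced cells. CANX was at 11.12, 10.40 and 10.48, then 10.49, 11.13 and 10.53, then 11.15, 11.20 and 11.18, and in induced cells 11.43, 11.44 and 11.34. In both genes the 2 control arrays had levels near those of shRNA-2 cells and the other 4 lay lower, without overlap. SLC7A11 and HERPUD1 were low on the same 2 arrays. SLC7A11 was at 6.94, 8.41 and 8.31 in vehicle-treated and 8.18, 6.63 and 8.05 in DOX-treated control cells, against 8.49, 7.78 and 8.52 in vehicle-treated shRNA-2 cells and 8.80, 8.23 and 8.92 in induced cells. HERPUD1 was at 8.22, 9.13 and 9.20, then 9.23, 8.44 and 9.20, then 9.21, 8.51 and 9.09, and in induced cells 9.14, 8.57 and 9.36, where repeat B of shRNA-2 cells was low as well. The leukocyte gene PTPRC moved with these levels, at 10.06, 8.97 and 9.15 in vehicle-treated control cells, 9.33, 10.03 and 9.10 with DOX, 10.07, 10.27 and 10.15 in vehicle-treated shRNA-2 cells and 9.87, 10.14 and 9.81 in induced cells. Of the other leukocyte markers, CD68 was at 8.68, 8.48 and 8.59 in vehicle-treated and 8.68, 8.81 and 8.41 in DOX-treated control cells. With shRNA-2 it was at 9.15, 8.39 and 9.11 with vehicle and 9.19, 8.52 and 9.14 with DOX. For CD68 the 2 control arrays overlapped the other 4, as they did for CD3E (4.85 to 5.27 in SK-N-AS) and CD14 (5.22 to 5.56). Summed linear intensity of the 10 other cell type markers ranged from 1174 to 1737 in vehicle-treated and 1181 to 1771 in DOX-treated control cells. It was 1854 to 1967 in vehicle-treated shRNA-2 cells and 1730 to 1779 in induced cells. PTPRC had the highest level of the 10 on each SK-N-AS array, so it weighs most in this sum. EPCAM was below background on every SK-N-AS array. The part of these markers in the result was not tested. CANX, SLC7A11 and HERPUD1 were chosen after their values were seen.

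**Figure D4:**
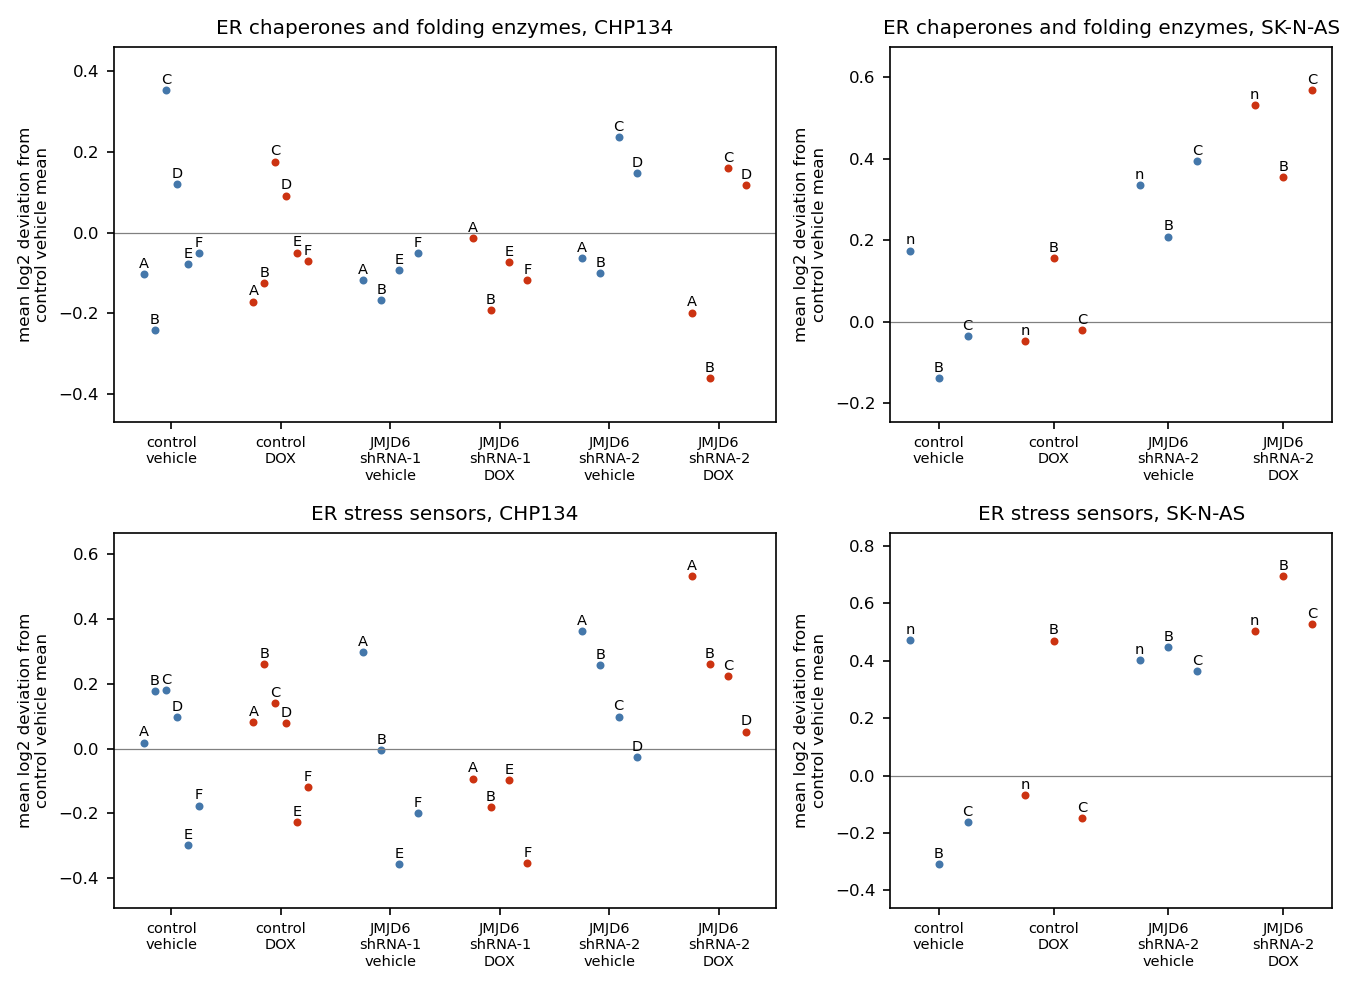
Mean log2 deviation from vehicle-treated control cells of the same line, averaged over the 14 ER chaperones and folding enzymes (top) and the 3 ER stress sensors (bottom), for each CHP134 array (left) and SK-N-AS array (right), with vehicle in blue, DOX in red and the repeat letter beside each point (n, no letter). In SK-N-AS the vehicle array with no letter and DOX repeat B of control cells stand above the other 4 control arrays, and in CHP134 repeats C and D stand above the other letters in the chaperones.

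Neighbouring genes of the same pathways, from lists of their textbook members, had 4 calls for the CHP134 mean response, where 1.25% of all clusters were called. None was called among 23 genes of ER import, 13 further sensors and regulators, 12 cytosolic heat shock proteins or 12 mitochondrial chaperones and proteases. Of 22 further ER folding enzymes FKBP14, a prolyl isomerase, fell by 1.03 (SE 0.22, adjusted p = 0.0132). Of 22 further degradation genes EDEM3, a mannosidase of the EDEM family, rose by 0.67 (SE 0.15, adjusted p = 0.0166), opposite in sign to the EDEM1 value. Of 14 genes of eIF2 phosphorylation and exchange EIF2B2, a subunit of the eIF2 exchange factor, fell by 0.70 (SE 0.14, adjusted p = 0.00594). Of 36 further ATF4 targets KLHL24 rose by 0.93 (SE 0.19, adjusted p = 0.00802). With shRNA-2 alone, where 0.779% of all clusters were called, the genes called in these lists were EIF2B2 and CTH. EIF2B2 fell by 1.03 (adjusted p = 0.0235). CTH, the cysteine-forming enzyme of transsulfuration, fell by 1.00 (SE 0.19, adjusted p = 0.0193). With the repeat letter as the block, where 6.18% of clusters were called, these lists had more calls for the mean response. They were 2 of 23 for ER import (SERP1 and SRPRA, both lower), 3 of 22 for further folding enzymes (FKBP14 lower, ERO1B and HSPA13 higher), 3 of 22 for further degradation genes (ERLIN1 lower, EDEM3 and OS9 higher), 1 of 13 for further sensors and regulators (MBTPS1, higher) and 3 of 14 for eIF2 phosphorylation and exchange (EIF2B2 and EIF2B4 lower, EIF2A higher). Of the 36 further ATF4 targets 7 were called in that fit, KLHL24 higher and 6 lower. The 6 were CTH (-0.64, adjusted p = 0.00928), the amino acid transporters SLC1A5 (-0.62, adjusted p = 0.00768), SLC7A1 (-0.56, adjusted p = 0.0162) and SLC1A4 (-0.48, adjusted p = 0.0336), and the tRNA synthetases LARS1 (-0.57, adjusted p = 0.0139) and YARS1 (-0.36, adjusted p = 0.032). None of the 8 ATF4 and CHOP targets described above was called with the block. For shRNA-2 alone with the block, where 4.47% of clusters were called, 7 of the 36 further ATF4 targets were called lower and 1 higher. In that fit 2 genes were lower for ER import, 2 lower for further folding enzymes and 2 higher for further degradation genes. For eIF2 phosphorylation and exchange 1 was lower, as was 1 mitochondrial gene. In SK-N-AS 0 genes of these lists were called for the response with all 12 arrays.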

How the data were processed

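The authors normalized the Clariom S arrays by RMA (per the labels) and deposited log2 intensities per probe set. Versions are not given in the sources used here. RMA gives all arrays of a run 1 distribution, so a shift shared by most genes is removed. Normalization of the lines was separate, and no test was made across them. Of 44 columns, 4 were identical copies of CHP134 control arrays A and B (largest difference 0), leaving 40 arrays, 28 of CHP134 and 12 of SK-N-AS. Groups and repeat letters follow the titles; the series description gives the letters of the hairpins the other way round. The study describes repeated microarray experiments. The sources used here do not say whether each repeat was a separate culture. The p-values rest on the spread between arrays of a group. Without the repeat block that spread includes level differences between repeat letters.

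Of 27189 probe sets, 5741 control sets were left out. Means per group were fitted with limma 3.58.1 (lmFit, eBayes) in R 4.3.3, two-sided, with Benjamini-Hochberg adjustment over 21448 clusters. Each CHP134 hairpin was fitted with control arrays of its own letters, other CHP134 comparisons with all 28 arrays. CHP134 arrays of the same letter correlated in their deviations from group means (r 0.14 to 0.59, 54 of 54 pairs over 0.1), so letters were taken to pair arrays. Blocked values are given where they change a call of a member, and for the neighbouring lists. The other CHP134 estimates, intervals and p-values come from fits without the block and so leave out this pairing. Scripts were tested on simulated data. Alternatives were the repeat block, trend and robust moderation, median centring, a filter on dim clusters, subsets of repeats and leaving out each array. The tests between repeat sets and the SK-N-AS fits without 2 control arrays were chosen after seeing the data. The members and lists were chosen with earlier results of these data known. Full values were given, by rule, for members called, the 3 members with the smallest p for the CHP134 mean response per role and the 4 with the smallest p in SK-N-AS. Promoter sequences are RefSeq's, GRCh38.p14, for 35 of 39 genes.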

Additional observations from a re-analysis of the deposited data

Results flagged for a closer look

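In 10 of 228 groups of 4 to 6 arrays examined (4.39%), 1 array lay further from the rest than Dixon's criterion allows. Chance alone gives about 1 in 20. Groups of different genes share arrays and so are not independent, and chance was not tested. The gap to the nearest array, as a share of the group's range, was 0.854 for HYOU1 in shRNA-1 vehicle repeat A (10.82, next 10.55), 0.737 for ATF4 in control DOX repeat C (9.0, next 9.54) and 0.926 for CANX in shRNA-1 DOX repeat A (11.64, next 11.45). DNAJC10 had 0.911 in shRNA-2 vehicle repeat C (8.49, next 8.34) and 0.694 in control DOX repeat A (7.77, next 8.16). In that control DOX repeat A array DERL1 (0.627, at 9.15, next 9.53) and DERL3 (0.634, at 5.19, next 5.40) were also lowest. TRIB3 had 0.696 in control vehicle repeat B (6.32, next 5.89) and 0.924 in shRNA-2 DOX repeat C (5.59, next 6.21), where PPP1R15A, the eIF2α phosphatase subunit GADD34, had 0.916 (5.26, next 5.42). All of these were CHP134 arrays. Groups of 3, which are all SK-N-AS groups, were not examined.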

How the results depend on the processing

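With the repeat letter as a replicate block, 2 members were called for the CHP134 mean response in place of 1, and 1 member, ATF4, for vehicle-treated shRNA-1 cells in place of 0; the block changed no other count of members called. Over all clusters the block gave 1326 calls in place of 268 for the mean response, 959 in place of 167 for shRNA-2, 16 in place of 0 for shRNA-1, 70 in place of 2 for the difference between hairpins, and 169 in place of 0 for vehicle-treated shRNA-1 cells. For vehicle-treated SK-N-AS cells it gave 0 in place of 1. Trend and robust moderation gave 5 for shRNA-1 and 16 for the SK-N-AS response, each in place of 0. Fits on all CHP134 arrays gave 26 for shRNA-1 and 302 for shRNA-2. In SK-N-AS the letters were only shared names (4 of 18 same-letter pairs over 0.1, r -0.47 to 0.41). From repeats A and B alone 0 members were called for the mean response and 0 for shRNA-2, and from C and D alone 0 for shRNA-2, with 0 clusters called in each of these and 9 for shRNA-1 from A and B. These subsets hold fewer arrays. Leaving out 1 array at a time gave 1 to 2 members called for the mean response (2 without shRNA-1 DOX repeat E) and 0 to 1 for shRNA-2. Counts over all clusters with 1 array left out were 191 to 328 for the mean response, 72 to 193 for shRNA-2, 0 to 217 for vehicle-treated shRNA-1 cells (217 without shRNA-1 vehicle repeat B) and 0 to 27 for the SK-N-AS response (27 without shRNA-2 DOX repeat B). Values near 0 changed sign: ERN1 was -0.00472 from repeats A and B alone and -0.0432 to 0.0829 with 1 array left out, ATF6 was 0.0217 from repeats C to F alone and -0.0842 to 0.0292, and EIF2AK3 was 0.133 from repeats C to F alone. Uncalled values of the mean response that moved by over 1.5 times with 1 array left out ranged from 0.0653 to 0.397 for VLDLR, 0.0316 to 0.272 for CEBPB, -0.225 to -0.0618 for SEL1L, -0.383 to -0.162 for ATF4, -0.248 to -0.0358 for EIF2AK3, 0.117 to 0.282 for DDIT3 and 0.181 to 0.415 for DDIT4, and the SK-N-AS response of DDIT3 from 0.245 to 0.647. The cause was not tested. Without the 2 SK-N-AS control arrays that stood apart, 9 members were called for vehicle-treated cells in place of 0. Moderation with trend, median centring and the filter on dim clusters changed no count of members called. The number of arrays limits the precision.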
